A study of Mus musculus with 4 samples.

Results

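The spots described here are the muscle-rich spots of mouse oral mucosa: in each of the 2 oral mucosa sections, the 80 spots with the highest share of their transcripts in 8 skeletal muscle genes. Spots with at least 1000 unique molecular identifiers (UMIs, each tagging 1 captured transcript) were chosen by a measured value, the summed share of Acta1, Ckm, Mylpf, Tnnt3, Tnni2, Tnnc2, Myl1 and Mb, and the 80 with the highest share were taken. They are 80 of 365 such spots at day 4 and 80 of 523 in unwounded mucosa, or 160 of the 3530 spots of the series. The study placed flash-frozen tissue of wildtype mice on 10x Genomics Visium arrays, which capture transcripts at printed spots and count them per gene and spot. The day 4 section came from wounded oral mucosa at postoperative day 4, and the unwounded section from oral mucosa without a wound. Both carry the wildtype genotype, and strain, age and the number of animals are not stated in the labels. Each condition is 1 section, so no difference between conditions has a replicate check, no p-value is given, and every interval covers counting error only.

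Skeletal muscle fibres contract when calcium released from the sarcoplasmic reticulum lets myosin heads pull on actin filaments within the sarcomere. Fibre types are named for the myosin heavy chain that they carry: Myh2 (type 2A), Myh1 (type 2X), Myh4 (type 2B) and Myh7 (slow), while Myh3 (embryonic) and Myh8 (perinatal) belong to developing and regenerating fibres, and Myh8 can persist in some craniofacial muscles. After injury, satellite cells divide, switch on Myod1 and Myog, and fuse through Mymk and Mymx into new fibres. A Visium spot covers a small region that can hold parts of several fibres together with vessels, blood, nerve and connective tissue, and in such sums fewer cells of a type and less RNA per cell cannot be told apart.

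The 80 day 4 spots held 846479 UMIs and the 80 unwounded spots 1299396. A spot held between 3816 and 23150 UMIs at day 4 (median 10387) and between 1667 and 25240 in unwounded mucosa (median 16718). Values below are CPM, the counts of a set of spots scaled to the usual common total, so that 3 UMIs, the floor used for a count of 0, correspond to 3.54 CPM at day 4 and 2.31 CPM in unwounded mucosa. The 2 sections differed in sex-linked transcripts. Xist, the transcript of the inactive X chromosome, had 7 UMIs in day 4 muscle-rich spots and 0 in unwounded ones, while the Y-linked Ddx3y and Eif2s3y had 0 and 0 UMIs at day 4, against 34 and 24 in unwounded mucosa. Wounding, the animal and its sex therefore cannot be told apart. The region of muscle that each section caught cannot be told apart from them either. Spots with at least 5% of their UMIs in the 8 genes numbered 118 at day 4 and 308 in unwounded mucosa. The sections share 136 array barcodes, which are printed positions and not cells, and none of these is a muscle-rich spot in both.

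The marker share that chose the spots ran from 10.1% to 15.6% of a spot's UMIs at day 4 (median 12.1%) and from 9.95% to 13.6% in unwounded mucosa (median 10.8%). At the edge of the rule, the day 4 spots ranked 80 and 81 had shares of 10.07% and 10.02%, and the unwounded spots of those ranks 9.95% and 9.91%, so the limit fell within a continuous range of shares in both sections. The other spots had a median share of 0.388% at day 4 and 5.18% in unwounded mucosa. At day 4, 79 of the 80 spots formed 1 contiguous patch at 1 end of the tissue and 1 spot lay alone. In unwounded mucosa they lay in patches of 53, 17 and 7 spots with 3 single spots among them. Beyond the muscle-rich spots, 38 other spots at day 4 and 228 other spots in unwounded mucosa had at least 5% of their UMIs in the 8 genes.

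**Figure D1:**
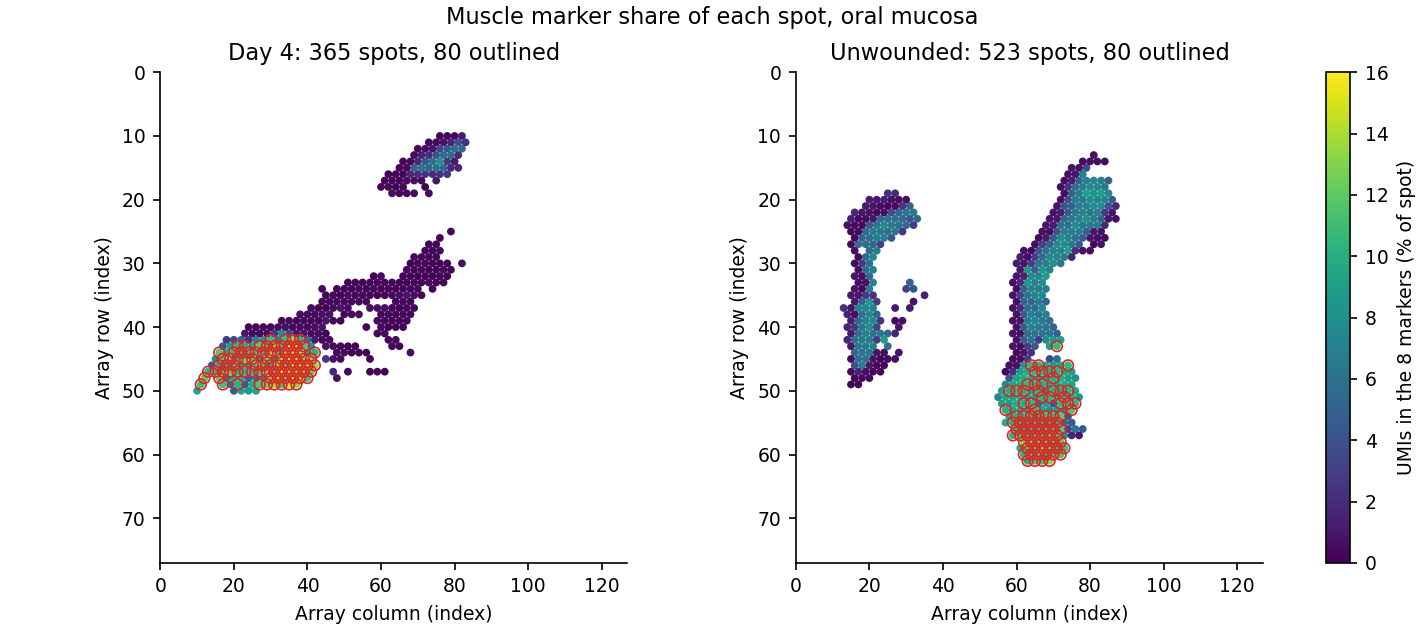
Each point is 1 spot with at least 1000 UMIs at its array row and column (position indices, day 4 on the left and unwounded mucosa on the right), coloured by the percent of its UMIs in the 8 muscle genes, with the 80 muscle-rich spots of each section outlined in red. The day 4 muscle-rich spots form 1 patch of 79 spots, and the unwounded ones a patch of 53 with smaller patches above it.

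The 8 genes that chose the spots are given as a description. Acta1, skeletal alpha actin, had 25368, 36189.8 and 50758 CPM in the lowest, median and highest of the 80 day 4 spots, against 21736, 26543 and 40792 CPM in the unwounded spots. Mylpf, the fast regulatory myosin light chain, ran 9964, 16771 and 26452 CPM at day 4 and 6132, 9454 and 13512 CPM unwounded. Mb, the oxygen-binding protein myoglobin, went the other way, with 6638, 13270.1 and 18776 CPM at day 4 and 13138, 19576 and 26133 CPM unwounded. For all 3 genes the spots of the 2 sections overlapped, and the summed ratios of day 4 to unwounded over the 8 genes ran between 0.669 for Mb and 1.735 for Mylpf. Each of these 8 defining markers of skeletal muscle was detected in all 80 spots of both sections.

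Day 4 muscle-rich spots were then set against unwounded ones gene by gene, for genes that reached 50 UMIs in the 2 sets together. A gene is called higher or lower where the CPM ratio was 2-fold or more either way and its exact 95% interval left out 1. Of 3021 genes compared, 108 (3.57%) were higher and 82 (2.71%) were lower at day 4, 6.29% in either direction, and the median log2 ratio of all genes, with 10 CPM added to both sides, was 0.04. The split moved with the scaling. With trimmed-mean (TMM) scaling, 75 genes were higher and 135 lower, so that higher genes were 35.7% of the calls, against 56.8% with CPM, and the median of all genes moved by -0.13 on the log2 scale. In the other spots of the same sections, 1538 of 10271 genes (15%) were higher at day 4 and 390 (3.8%) lower. Among these genes 48 were higher in both regions, 14 were lower in both, and 0 were called in opposite directions.

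**Figure D2:**
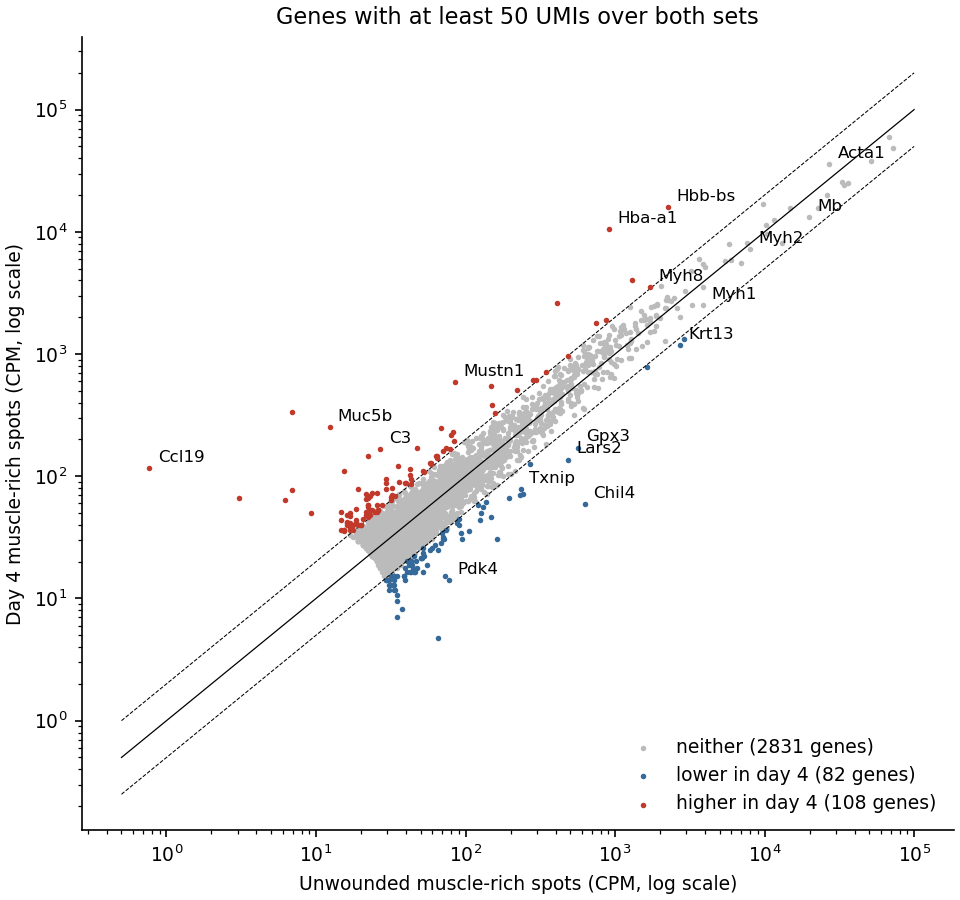
Each point is 1 of 3021 genes, with its CPM in the 80 day 4 spots on the y axis and in the 80 unwounded spots on the x axis, both on log scales. Dashed lines mark a 2-fold difference, with 108 genes (red) called higher and 82 (blue) lower at day 4. The abundant muscle genes lie near the diagonal, which the choice of spots by muscle genes favours.

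Of the contractile and metabolic machinery of the fibre, 1 measured gene passed the 2-fold limit over the 80 spots of each section. Both sets were chosen for a high share of 8 muscle genes, 12.3% of UMIs at day 4 and 11.1% in unwounded spots. That choice by itself favours ratios near 1 for genes expressed with the 8, so the counts below are a description. Of 106 genes in the lists of adult myosin heavy chains, thick filament, thin filament, Z disc and titin, calcium handling, glycogen and glycolysis, and nuclear-encoded respiration, 100 were measured; 0 were higher at day 4 and 1 was lower, beside 3.57% and 2.71% of all genes, and their log2 ratios ran between -0.77 and 0.86. The exception was Clcn1, the chloride channel that steadies the fibre membrane, with 15.4 CPM in day 4 muscle-rich spots and 31.6 CPM in unwounded ones from 13 and 41 UMIs; it was 2.05-fold lower (95% interval 1.08 to 4.18). That call was lost when all spots with at least 5% of the markers were taken, when spots were averaged, and when spots with 1% or more of blood UMIs were left out. Which spots were taken moved these calls. In all spots with at least 5% of the markers, 4 of 106 measured genes were higher (Actn3, Mybph, Myoz2 and Pdlim7) and 4 lower (Myh1, Myh4, Myom1 and Myom2). Of all 7169 genes compared with that rule, 203 were higher and 511 lower. When spots were ranked by 8 other muscle genes, 1 of 101 was higher (Myoz2) and 5 were lower (Cacybp, Myh1, Myh4, Myom1 and Myom2). Of all 3183 genes compared under that ranking, 84 were higher and 189 lower. Over these and the other alternatives that kept the 2-fold limit, Actn3, the fast-fibre alpha-actinin, reached 2.88-fold higher, Myom1, an M band protein, 2.66-fold lower and Cacybp, a calcyclin-binding protein, 2.62-fold lower. No test of equality was possible with 1 section each.

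Among the thin filament genes, Tpm1, fast alpha tropomyosin, had 7989.7 CPM at day 4 and 5784 CPM in unwounded spots, and Neb, the nebulin ruler of the actin filament, had 1159 CPM at day 4 and 1507 CPM in unwounded spots. In the Z disc, Pdlim7, a Z disc adaptor, had 448 CPM at day 4 and 242 CPM in unwounded spots, and Des, the desmin intermediate filament that links Z discs, had 2246 CPM at day 4 and 1484 CPM in unwounded spots. In the M band list, Mylk4, a myosin light chain kinase of striated muscle, had 100.4 CPM at day 4 and 179 CPM in unwounded spots, and Mybpc1, a myosin binding protein, had 1099.9 CPM at day 4 and 1379.9 CPM in unwounded spots. None of these 6 differed 2-fold over the 80 spots, but Pdlim7 passed the limit in the 40 highest spots and in all spots with at least 5% of the markers (up to 2.11-fold higher), and Mylk4 with totals that left out the markers and mitochondrial genes and in spots with under 1% of blood UMIs (up to 2.07-fold lower). Among calcium genes, Pvalb, the parvalbumin that buffers calcium in fast fibres, ran 148, 1139.8 and 3376 CPM over the day 4 spots and 498, 2163 and 5181 CPM over the unwounded spots, and its summed level was 1.70-fold lower (95% interval 1.58 to 1.82) at day 4. Sln, the sarcolipin inhibitor of the calcium pump, had 206 CPM at day 4 and 129 CPM in unwounded spots and was 1.599-fold higher (95% interval 1.29 to 1.99). Neither value passed the 2-fold limit, and the spots of the sections overlapped for both genes. In the spots ranked 41 to 80 both passed it, with Pvalb 2.04-fold lower and Sln 2.11-fold higher. Among energy genes, Eno3, the muscle enolase, had 2787 CPM at day 4 and 2180.3 CPM in unwounded spots, and Ckmt2, the mitochondrial creatine kinase, had 934 CPM at day 4 and 1248 CPM in unwounded spots.

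The myosin heavy chains are taken one by one, since they name the fibre types. Myh2 was the leading isoform in the summed muscle-rich spots of both sections, with 7235 CPM at day 4 and 7958 CPM in unwounded mucosa. It ran 3132, 7246 and 11417 CPM over the day 4 spots and 2982, 8102 and 12787 CPM over the unwounded spots, which overlapped almost wholly. Myh1 had 2496 CPM at day 4 and 3897 CPM in unwounded spots and was 1.56-fold lower (95% interval 1.48 to 1.64), short of the 2-fold limit over the 80 spots. It passed the limit in the spots ranked 41 to 80, in all spots with at least 5% of the markers, under the ranking by other genes and in spots with under 1% of blood UMIs, where it was up to 3.05-fold lower. Its day 4 spots ran 0, 1417 and 14021 CPM, against 355, 3358 and 12465 CPM in unwounded spots. Myh8, the perinatal chain, had 3541 CPM at day 4 and 1710.0 CPM in unwounded spots and was 2.07-fold higher (95% interval 1.959 to 2.19), with 2997 and 2222 UMIs. Its day 4 spots ran 90.5, 3421 and 8910.2 CPM and its unwounded spots 0, 1853 and 4548 CPM, so the ranges overlapped although the day 4 median lay higher. The Myh8 call depended on processing: its fold ran between 1.601 and 4.45 over the alternatives and was under 2 in the largest patch, with TMM scaling, in spots with under 1% of UMIs in erythrocyte genes (log2 ratio 0.79), and with totals that left out mitochondrial genes. As shares of the UMIs of 6 myosin genes, Myh2, Myh1 and Myh8 made up 54.5%, 18.8% and 26.7% at day 4, against 58.4%, 28.6% and 12.6% in unwounded spots. Myh7, the slow chain, had 6 and 25 UMIs, and of the 4 measured genes of the slow-type fibre list 0 were called; Tnnt1, slow troponin T, had 113 CPM at day 4 and 67.0 CPM in unwounded spots. Under those same 4 choices of spots Tnnt1 was called higher, by up to 4.50-fold, and Myoz2, a slow-fibre Z disc protein, under 2 of them, the 5% limit and the ranking by other genes (up to 2.10-fold).

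**Figure D3:**
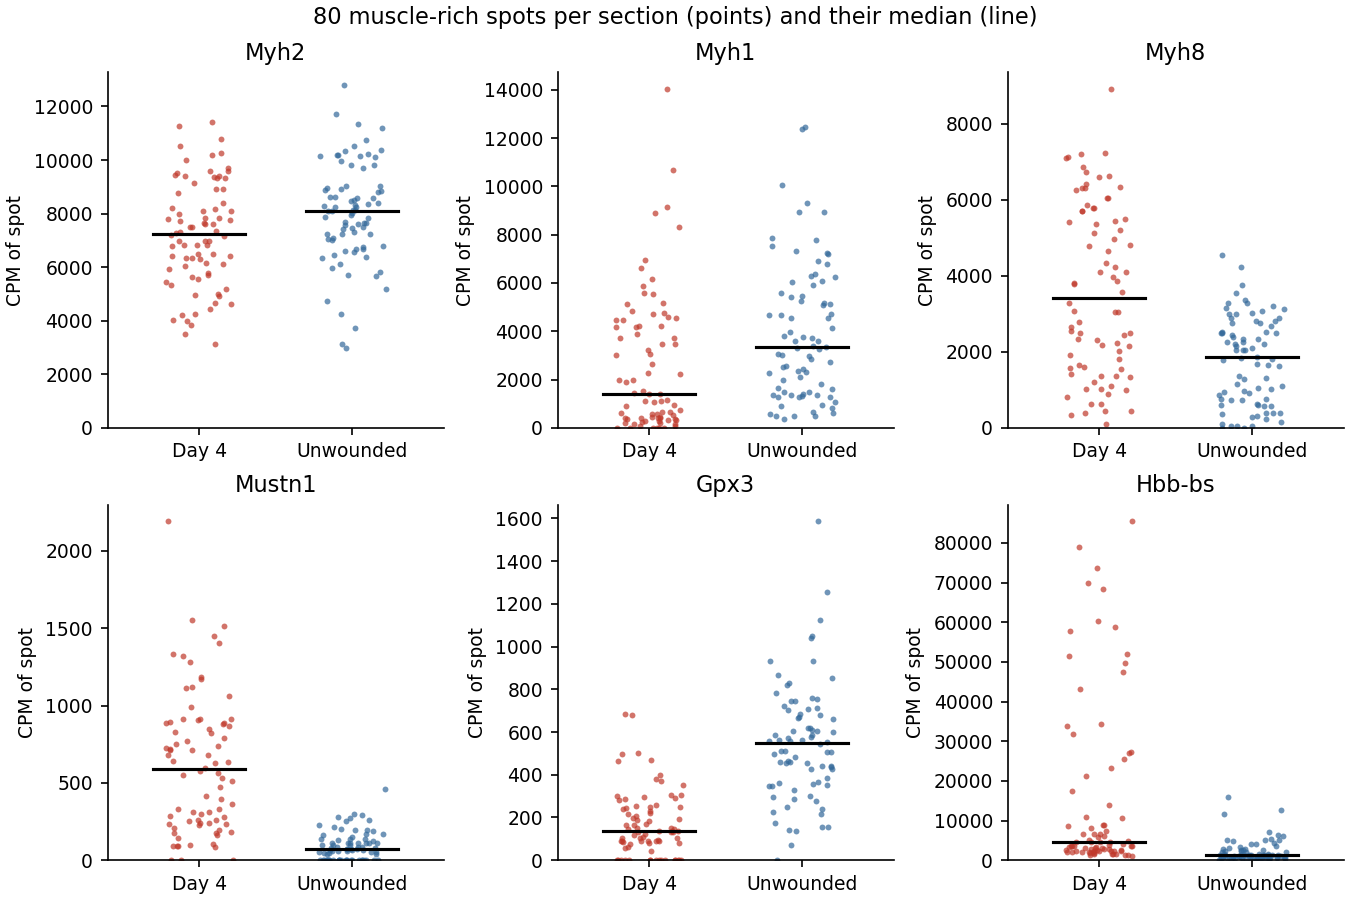
Each point is 1 of 80 muscle-rich spots per section (day 4 left, unwounded right), with the gene's CPM in that spot on the y axis and the median as a line, for Myh2, Myh1, Myh8, Mustn1, Gpx3 and Hbb-bs. Mustn1 medians are 587 CPM at day 4 and 70.4 CPM unwounded, while the Myh2 spots of both sections cover nearly the same range.

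The fast and developmental myosin genes lie side by side on mouse chromosome 11, all on the plus strand. The 300 bases from 250 before to 50 after the start of each gene are shown (RefSeq, GRCm38.p6) for the 3 isoforms that filled the muscle-rich spots and for Myh4, which was nearly missing from them. The intervals are chr11:67170777-67171076 for Myh2, chr11:67199852-67200151 for Myh1, chr11:67276874-67277173 for Myh8 and chr11:67237562-67237861 for Myh4. Capitals mark matches to TATAAA, to CAGCTG (an E-box of the kind that MyoD-family factors bind), to the MEF2 motif and to the CArG box bound by serum response factor.
Myh2: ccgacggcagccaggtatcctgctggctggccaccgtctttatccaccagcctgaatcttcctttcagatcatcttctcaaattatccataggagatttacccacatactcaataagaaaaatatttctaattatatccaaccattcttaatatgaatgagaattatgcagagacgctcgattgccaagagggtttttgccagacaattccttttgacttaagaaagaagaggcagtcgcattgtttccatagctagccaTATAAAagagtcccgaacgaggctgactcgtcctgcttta
Myh1: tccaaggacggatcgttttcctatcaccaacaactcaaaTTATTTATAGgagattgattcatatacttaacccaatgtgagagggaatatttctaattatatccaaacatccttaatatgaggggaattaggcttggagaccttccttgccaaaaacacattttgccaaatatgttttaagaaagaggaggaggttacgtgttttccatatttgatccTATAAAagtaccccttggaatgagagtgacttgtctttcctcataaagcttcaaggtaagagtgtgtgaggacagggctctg
Myh8: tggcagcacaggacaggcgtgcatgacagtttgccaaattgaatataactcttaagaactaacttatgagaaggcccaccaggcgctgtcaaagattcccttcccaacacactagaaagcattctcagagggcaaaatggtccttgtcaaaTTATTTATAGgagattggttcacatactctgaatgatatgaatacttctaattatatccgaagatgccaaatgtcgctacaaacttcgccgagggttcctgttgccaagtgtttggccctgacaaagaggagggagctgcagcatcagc
Myh4: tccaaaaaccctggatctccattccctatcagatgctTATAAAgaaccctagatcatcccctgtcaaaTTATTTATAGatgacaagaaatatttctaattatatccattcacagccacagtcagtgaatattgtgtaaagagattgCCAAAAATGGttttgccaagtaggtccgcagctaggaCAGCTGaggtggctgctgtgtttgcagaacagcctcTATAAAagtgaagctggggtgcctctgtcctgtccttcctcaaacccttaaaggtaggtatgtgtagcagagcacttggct
TATAAA, on either strand, occurs in 13.6% of 32851 promoter windows of this length, CAGCTG in 16.3%, the MEF2 motif in 3.19% and the CArG box in 1.63%. Counted from the gene start, TATAAA began at -32 in Myh1 and at -31 in Myh4, which has another at -213. Both windows also hold a MEF2 match, at -211 in Myh1 and at -182 in Myh4, each overlapping a TATAAA read on the minus strand. The Myh4 window alone of these 4 holds CAGCTG, at -67, and a CArG box, at -104. Myh8 has a MEF2 match at -99 that overlaps a minus-strand TATAAA, and the Myh2 window has 1 TATAAA, at 11, past the annotated start. Positions depend on the annotated start of each gene, and whether transcription begins there was not tested. These matches are descriptions of letters and not of bound sites.

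Within the day 4 patch the isoforms were not spread evenly. From the 20 spots with the highest marker share to the spots ranked 61 to 80, Myh8 stood at 6095, 4177, 2463 and 1587 CPM in successive classes of 20 spots, Myh1 at 5891, 2484, 1007 and 809 CPM, and Myh2 at 5941, 7047, 7942 and 7941 CPM. In unwounded mucosa the Myh8 classes stood at 2647, 2171, 1117 and 836 CPM. Myh8 and Myh1 were thus high in the same rank classes at day 4, and Myh2 in the opposite ones. Across the 80 day 4 spots, Spearman's rho between Myh8 and Myh1 was 0.85 and between Myh8 and Myh2 -0.53; along the array columns it was 0.80 for Myh1, 0.76 for Myh8, 0.72 for Actn3 and -0.51 for Myh2. Across the 80 unwounded spots rho was -0.71 between Myh1 and Myh2, and Myh8 followed the array rows with 0.71. All these spots share 1 library per section and neighbour each other, so these values describe a spatial arrangement in 2 pieces of tissue.

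Myh4 lay outside the muscle-rich spots. It had 2 UMIs in day 4 and 45 UMIs in unwounded muscle-rich spots, 47 in all and so under the minimum for comparison, and 2 and 31 of the 80 spots held any. In the other spots it reached 111 CPM at day 4 and 1253 CPM in unwounded mucosa. In the 38 day 4 spots outside the muscle-rich set that still had at least 5% of UMIs in the 8 markers, Myh4 stood at 312 CPM, Myh1 at 3214 CPM, Myh2 at 4214 CPM and Myh8 at 1112 CPM. In the 228 such unwounded spots the values were 2054, 6183, 2265 and 163 CPM in the same order. In these sums Myh2 and Myh8 were higher in the muscle-rich spots of both sections than in their further muscle-bearing spots. Myh4 and Myh1 were lower. The 38 day 4 spots were not alike and lay in 13 patches. In those at array rows 12 to 15, far from the muscle-rich patch, Myh1 ran from 3156 to 10187 CPM and Myh2 from 0 to 2988 CPM. In most of those at rows 41 to 50 Myh2 stood above Myh1, as in the spot ranked 87 (8505 and 0 CPM).

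**Figure D4:**
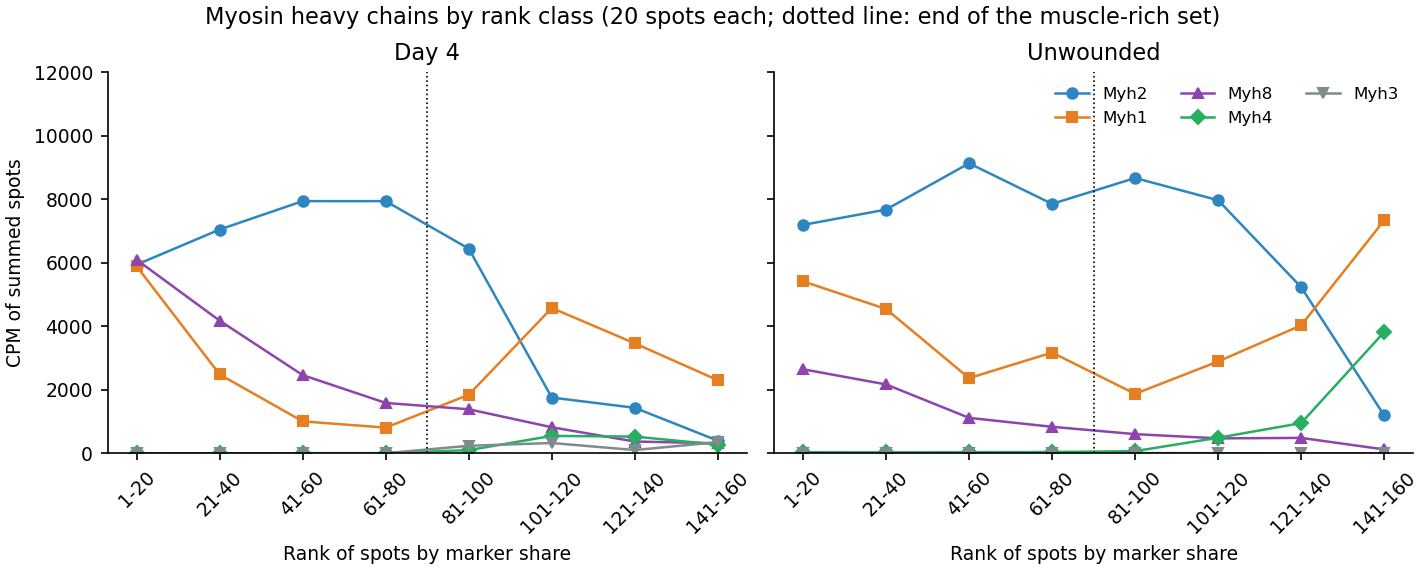
CPM of 5 myosin heavy chains (y axis) in successive classes of 20 spots ranked by marker share (x axis), day 4 on the left and unwounded mucosa on the right; the dotted line marks the end of the 80 muscle-rich spots. Myh8 stands at 6095 CPM in the first day 4 class and 2647 CPM in the first unwounded class. Myh4 and, at day 4, Myh3 appear only past the dotted line at visible levels. In ranks 81 to 100 at day 4, Myh3 came mostly from the spot ranked 99 (1867 CPM), at array row 14 and column 76.

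Most genes of regenerating muscle had few or no UMIs in the muscle-rich spots, with Myh8 the main exception. The list summed to 4138 CPM in day 4 and 2122 CPM in unwounded muscle-rich spots, against 2901 and 831 CPM in other spots. Myh8 held 2997 of its 3503 UMIs in the day 4 muscle-rich spots. Of 20 such genes, 6 reached the minimum; 2 were higher at day 4 and 0 lower, beside 3.57% and 2.71% of all genes, and the median log2 ratio was 0.54, beside 0.04 for all genes. The higher genes were Myh8, described above, and H19, an imprinted noncoding RNA of fetal and regenerating muscle, with 161 CPM at day 4 and 70.8 CPM in unwounded spots (2.27-fold higher, 95% interval 1.729 to 2.99). The H19 call was lost when spots were ranked by 8 other muscle genes, under which its fold was 1.16, and when the total left out the markers and mitochondrial genes. Myf6, a myogenic factor of mature fibres, had 48.4 CPM at day 4 and 86.2 CPM in unwounded spots and did not pass the limit over the 80 spots, while it was called lower with totals that left out the markers and mitochondrial genes and in spots with under 1% of blood UMIs. Myog, the factor that starts fibre differentiation, had 0 UMIs in both sets, as did Myf5 and the fusion peptide gene Mymx. Myh3 had 2 and 1 UMIs, the fusion gene Mymk 2 and 1, the embryonic light chain Myl4 17 and 20, and Pax7, a satellite cell factor, 2 and 1.

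The same genes were present in the other spots of the day 4 section. Myh3 had 274 UMIs in other day 4 spots, against 10 in other unwounded spots, a level 76.3-fold higher (95% interval 40.9 to 161). Myog had 131 and 28 UMIs, Mymk 78 and 6, and Myl4 843 and 116. Of the 20 genes, 15 were measured in the other spots, and 12 of these were higher at day 4 and 0 lower, beside 15% and 3.8% of all genes there. Within the day 4 section, muscle-rich spots had lower levels than other spots for Myh3 (54.5-fold lower, 95% interval 14.9 to 452), Myl4 (19.7-fold lower, 95% interval 12.2 to 34.0) and Actc1, the cardiac and fetal actin (6.34-fold lower, 95% interval 4.33 to 9.65). Myog at 0 of 846479 UMIs was at least 17.4-fold lower, taking the floor of 3 UMIs over the set.

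Mitochondrial transcripts took a smaller part of the day 4 spots. The share of UMIs from the mitochondrial genome was 26.9% over the day 4 spots and 36.3% over the unwounded spots. It ran from 15.1% to 37.6% among day 4 spots (median 25.8%) and from 25.6% to 45.3% among unwounded spots (median 36.2%), which overlapped in part. All 12 measured mitochondrial genes fell short of the 2-fold limit, with a median log2 ratio of -0.44. For mt-Co1, a catalytic subunit of cytochrome c oxidase, the levels were 48904 CPM at day 4 and 72772 CPM in unwounded spots. In the other spots the share was 6.08% at day 4 and 17.5% unwounded. All 13 genes measured there were lower at day 4, beside 3.8% of all genes. Those other spots differed in muscle content, with median marker shares of 0.388% at day 4 and 5.18% in unwounded mucosa. The part of this gap in the mitochondrial difference was not tested. The 23 nuclear genes of respiration in the muscle-rich spots had a median log2 ratio of -0.08, and 0 of them were called. Cox8b and Cox6a2, muscle forms of cytochrome oxidase subunits, had 4736 and 5119 CPM at day 4, against 3212 and 3976 CPM unwounded.

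Among genes of fatty acid use, 1 of 15 measured was lower at day 4 and 0 were higher, beside 2.71% and 3.57% of all genes, and the median log2 ratio was -0.39. Pdk4, the kinase that shuts pyruvate out of the mitochondrion and is induced by fasting, had 14.2 CPM at day 4 and 77.7 CPM in unwounded spots and was 5.48-fold lower (95% interval 3.01 to 11.0). Its call held in all 13 alternatives that compared it. Lpl, the lipoprotein lipase that frees fatty acids from blood lipids, had 183 CPM at day 4 and 346 CPM in unwounded spots, and Acsl1, which activates long-chain fatty acids, had 83.9 CPM at day 4 and 142 CPM in unwounded spots. Neither differed 2-fold over the 80 spots. Lpl was called lower in the spots ranked 41 to 80, with the 5% limit, with TMM scaling and with both reduced totals (up to 2.18-fold), and Acsl1 in the spots ranked 41 to 80 (2.11-fold). Txnip, a glucose- and glucocorticoid-responsive inhibitor of glucose uptake, had 78.0 CPM at day 4 and 234 CPM in unwounded spots and was 3.001-fold lower (95% interval 2.29 to 3.98). Gpx3, the secreted glutathione peroxidase, ran 0, 137 and 685 CPM over the day 4 spots and 0, 548 and 1586 CPM over the unwounded spots and was 3.28-fold lower (95% interval 2.74 to 3.95); its fold was 1.47 when all spots with at least 5% of the markers were taken. Set against the same contrast in other spots as a ratio of ratios, the extra log2 difference was -1.51 (95% interval -2.49 to -0.52) for Pdk4. It was -1.18 (95% interval -1.61 to -0.74) for Txnip and -1.06 (95% interval -1.41 to -0.72) for Gpx3. All 3 intervals cover counting error only. Those other spots differed in muscle content, with median marker shares of 0.388% at day 4 and 5.18% in unwounded mucosa, and the part of this gap was not tested.

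In the lists of stress, atrophy and membrane genes few members passed the limit, and their counts stand beside 3.57% of all genes higher and 2.71% lower. Of 9 measured denervation, atrophy and proteolysis genes, 1 was lower: Cdkn1a, a cell cycle inhibitor, was 2.20-fold lower, a call lost in spots with under 1% of blood UMIs, while the atrophy ubiquitin ligase Trim63 had 46.1 CPM at day 4 and 80.04 CPM in unwounded spots. Of 8 mechanical stress genes, Xirp1, an actin-binding protein of stressed fibre junctions, was lower, with 55.5 CPM at day 4 and 131 CPM in unwounded spots (2.36-fold lower, 95% interval 1.70 to 3.33); the call was lost in the 40 highest spots and when all spots with at least 5% of the markers were taken. Abra, an activator of serum response factor signalling in striated muscle, had 43.7 CPM at day 4 and 125 CPM in unwounded spots and was 2.87-fold lower (95% interval 2.00 to 4.22). Of 14 measured dystrophin complex and membrane repair genes, 1 was higher and 1 lower. Anxa1, a calcium-dependent membrane repair protein that leukocytes and epithelium also make, had 95.7 CPM at day 4 and 29.2 CPM in unwounded spots and was 3.27-fold higher (95% interval 2.20 to 4.95), and Ano5, a membrane protein mutated in muscular dystrophy, was 2.33-fold lower (95% interval 1.49 to 3.75). Both of these calls were lost under 2 rules for choosing spots, the 5% limit and the ranking by other genes. Of 12 measured heat shock and stress genes and 5 measured head muscle transcription factors, 0 were called over the 80 spots. Hspb8, a small heat shock protein, had 72.1 CPM at day 4 and 140.1 CPM in unwounded spots, and it was called lower in 6 alternatives that kept the 2-fold limit, among them TMM scaling and the mean of spot values (up to 2.25-fold). Tbx1, a factor of head muscle development, had 28.4 CPM at day 4 and 26.2 CPM in unwounded spots. With the 5% limit and under the ranking by other genes, Tbx1 (up to 3.69-fold) and Mt2, a metallothionein (up to 3.05-fold), were called lower.

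Mustn1, a small nuclear protein of muscle and skeletal tissue, was among the highest genes at day 4. It ran 0, 587 and 2191 CPM over the day 4 spots, against 0, 70.4 and 459 CPM over the unwounded spots, and was detected in 77 and 54 of 80 spots (33 and 9 after thinning each spot to 1000 UMIs). Its summed level was 6.94-fold higher (95% interval 5.64 to 8.61). In the other spots it was 2.39-fold higher, and the log2 ratio of ratios was 1.54 (95% interval 1.21 to 1.87). Those other spots differed in muscle content, with median marker shares of 0.388% and 5.18%. In the spots ranked 81 to 100, Mustn1 stood at 1216 CPM at day 4, against 90.7 CPM in unwounded mucosa. In those ranked 101 to 120 it stood at 1007 against 130.3 CPM. These ranks are not places, and part of these day 4 spots lay far from the muscle-rich patch at rows 42 to 49 and columns 11 to 42. The spot ranked 99, at row 14 and column 76, had 6087 CPM of Mustn1 among 26778 UMIs and so weighed heavily in its class. Nol3, an apoptosis repressor of heart and skeletal muscle, had 169 CPM in day 4 muscle-rich spots and 47.7 CPM in unwounded ones and was 3.54-fold higher (95% interval 2.61 to 4.85), while in other spots the values were 46.1 CPM at day 4 and 52.0 CPM unwounded. Ppp1r11, a regulatory subunit of protein phosphatase 1, was 6.56-fold higher (95% interval 4.35 to 10.2) with 146 CPM in day 4 muscle-rich spots and 22.3 CPM in unwounded ones, and in other spots 1.62-fold higher. The log2 ratio of ratios was 2.00 (95% interval 1.46 to 2.54) for Nol3 and 2.02 (95% interval 1.36 to 2.68) for Ppp1r11. Gamt, the last enzyme of creatine synthesis, had 122 CPM at day 4 and 35.4 CPM in unwounded spots (3.44-fold higher, 95% interval 2.41 to 4.98). These 4 genes kept their call in all alternatives that compared them.

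Ccl19, a chemokine that draws CCR7-bearing dendritic cells and T cells, had the highest fold of the genes named by rule. It had 99 UMIs at day 4 and 1 UMI in unwounded muscle-rich spots, or 117 CPM in day 4 muscle-rich spots and 0.770 CPM in unwounded ones, a ratio of 152 with a counting interval of 26.7 to 6062. It was detected in 56 day 4 spots and 1 unwounded spot, and 8 and 0 after thinning. Other day 4 spots had 15.04 CPM, so that within the day 4 section Ccl19 was 7.78-fold higher (95% interval 5.17 to 11.97) in muscle-rich spots. C3, the central complement component, had 167 CPM at day 4 and 26.9 CPM in unwounded spots and was 6.18-fold higher (95% interval 4.25 to 9.23), and Apoe, a lipid carrier made by macrophages among other cells, was 3.64-fold higher (95% interval 2.83 to 4.72). The predicted gene Gm8797, outside the naming rule and singled out after its values were seen, had 334 and 6.93 CPM, and 270.3 and 5.74 CPM in the other spots, so its difference between sections was nearly the same in both regions. Lars2, a mitochondrial leucyl-tRNA synthetase, was 3.55-fold lower (95% interval 2.91 to 4.37) in muscle-rich spots and 3.56-fold lower in other spots, with a log2 ratio of ratios of 0.00 (95% interval -0.34 to 0.34). Also among the 15 highest was Ftl1, the ferritin light chain that stores iron, with 382 CPM at day 4 and 149 CPM in unwounded spots (2.56-fold higher, 95% interval 2.13 to 3.07), and among the 15 lowest were G3bp2, a stress granule protein (2.74-fold lower), Pttg1, securin (3.08-fold lower), and Msrb1, a methionine sulfoxide reductase (2.97-fold lower). Ftl1 and G3bp2 lost their call when all spots with at least 5% of the markers were taken.

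Blood transcripts differed strongly between the sections. All 5 erythrocyte genes were higher at day 4, beside 3.57% of all genes, and their median log2 ratio was 2.65. Their summed share was 3.32% of UMIs over the day 4 spots and 0.490% over the unwounded spots; among spots it had a median of 0.910% and a maximum of 16.2% at day 4, against 0.237% and 3.43%. Hbb-bs, a beta globin, ran 1006, 4457 and 85414 CPM at day 4 and 128, 1196 and 15848 CPM unwounded and was 7.03-fold higher (95% interval 6.76 to 7.32), and Alas2, the erythroid enzyme of haem synthesis, was 7.14-fold higher (95% interval 4.37 to 12.2). The alpha globin Hba-a1 was 11.6-fold higher and the near-identical Hba-a2 3.10-fold higher. Whether counting split reads between these copies was not tested. In the 42 day 4 and 69 unwounded spots with under 1% of such UMIs, Hba-a1, Hbb-bs, Hbb-bt and Alas2 kept their call, while Hba-a2 had a log2 ratio of -0.090. In that same subset 103 of 2371 genes compared were higher and 80 lower, against 108 and 82 of 3021 over all spots. Calls of single genes moved in this subset. Those of Myh8, Krt13, Krt4, Clcn1 and Cdkn1a were lost, and Myh1 and Mylk4 were among the genes that gained one.

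Genes of inflammation and early matrix were scarce in the muscle-rich spots at day 4, and some were higher than in unwounded spots. None of the 12 neutrophil genes reached 50 UMIs over both sets; summed they had 115 CPM at day 4 and 13.1 CPM unwounded, with spots running 0, 93.9 and 548 CPM, against 0, 0 and 140.4 CPM. In the other spots the sums were 5349.9 and 49.4 CPM. S100a8 and S100a9, the calprotectin pair, had 40 and 39 UMIs in day 4 muscle-rich spots, against 2 and 3 in unwounded ones, and the neutrophil gene Retnlg had 0 in both. Of the 12 members, 5 at day 4 and 6 in unwounded spots were at 0. The 15 cytokine and chemokine genes summed to 23.6 CPM at day 4 and 7.70 CPM unwounded, with 9 and 11 members at 0. Among macrophage genes, 3 of 4 measured were higher and 0 lower, beside 3.57% and 2.71% of all genes: Lyz2, a lysozyme, with 216 CPM at day 4 and 80.04 CPM in unwounded spots (2.70-fold higher, 95% interval 2.11 to 3.47), and the complement genes C1qa (3.07-fold higher) and C1qc (2.10-fold higher). The C1qc call was lost in 5 alternatives, among them TMM scaling, where C1qa and Lyz2 kept theirs. The macrophage list summed to 522 and 229 CPM in muscle-rich spots and to 2047 and 444 CPM in other spots, where 13 of 14 measured genes were higher at day 4, beside 15% of all genes.

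Of 13 measured fibroblast genes, 4 were higher and 0 lower, beside 3.57% and 2.71% of all genes, with a median log2 ratio of 0.54. Col3a1, a fibrillar collagen of early repair, ran 0, 343 and 5217 CPM over the day 4 spots and 0, 116 and 582 CPM over the unwounded spots and was 3.66-fold higher (95% interval 3.09 to 4.35). Col1a1, the main fibrillar collagen, had 229 CPM at day 4 and 82.3 CPM in unwounded spots (2.78-fold higher, 95% interval 2.19 to 3.56), and Lum, a collagen-binding proteoglycan, was 2.99-fold higher; all 3 calls held in each alternative. Of 4 measured early wound matrix genes 2 were higher and 0 lower, beside the same shares: Fn1, fibronectin, by 2.23-fold and Fbn1, fibrillin, by 2.20-fold, and both calls were lost when the total left out the markers and mitochondrial genes. The matrix list summed to 633 CPM at day 4 and 340.2 CPM unwounded, against 4878 and 754 CPM in the other spots, where all 14 measured genes were higher at day 4, beside 15% of all genes, with a median log2 ratio of 2.78. Spp1, osteopontin, and Tnc, tenascin, had 6 and 4 UMIs in day 4 muscle-rich spots, against 0 and 1 in unwounded ones. Endothelial genes showed 0 of 5 called, with a median of 0.04, and pericyte and smooth muscle genes 0 of 3, although Acta2, smooth muscle actin, was called higher with the 5% limit and in spots with under 1% of blood UMIs (up to 2.41-fold). Adipocyte markers Adipoq and Plin1 had 0 UMIs at day 4, and 1 and 0 in unwounded spots, and 0 of 10 cell division genes reached the minimum. Of 3 measured genes of growth and myostatin signalling, Fstl1, a secreted follistatin-like protein that fibroblasts also make, was 2.21-fold higher (95% interval 1.53 to 3.22), a call lost in 3 alternatives. The share of these differences that comes with other cell types in the spots was not tested.

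**Figure D5:**
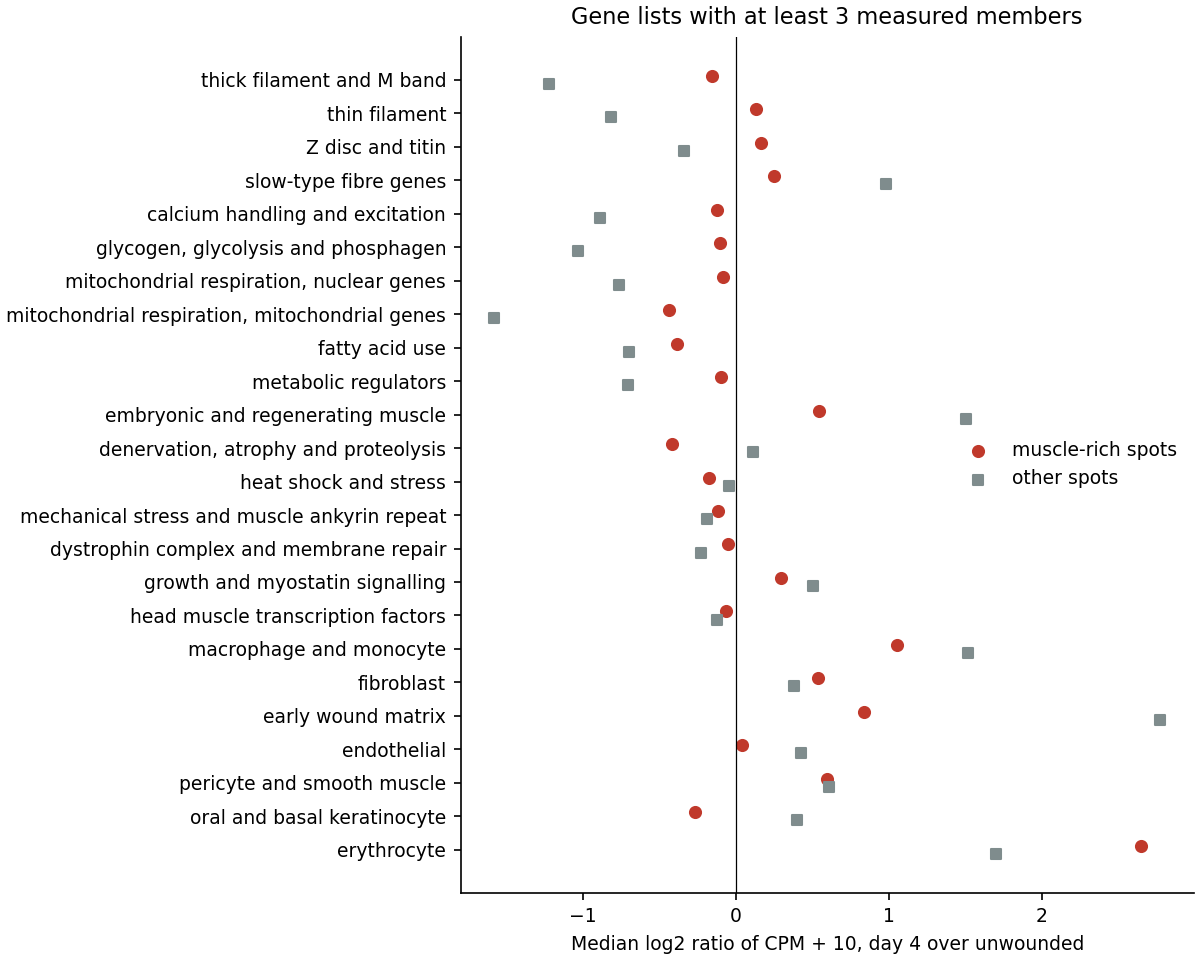
Median log2 ratio of day 4 over unwounded (x axis, CPM with 10 added) for each gene list with at least 3 measured members (y axis), in muscle-rich spots (red circles) and in the other spots (grey squares). The early wound matrix median is 0.84 in muscle-rich and 2.78 in other spots, and the erythrocyte median 2.65 and 1.70.

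Transcripts of epithelium and gland were also counted in the muscle-rich spots, below their level in the other spots for most of these genes. Krt13, the keratin of the upper layers of oral epithelium, ran 0, 828 and 9517 CPM over the day 4 spots and 965, 2300.5 and 9544 CPM over the unwounded spots, beside 25417 and 32100.2 CPM in other spots. It was 2.29-fold lower (95% interval 2.14 to 2.46) at day 4, and its partner Krt4 was 2.07-fold lower; both calls were lost in the largest patch and in spots with under 1% of blood UMIs. Of 8 measured keratinocyte genes these 2 were lower and 1 was higher, beside 2.71% and 3.57% of all genes. The higher one was Krt16, a keratin of activated epithelium, at 2.94-fold higher. Krt16 turned lower when all spots with at least 5% of the markers were taken (log2 ratio -1.69) and when spots were ranked by other genes (-1.01). The whole keratinocyte list summed to 2501 CPM at day 4 and 4818 CPM unwounded, with spots running 318, 1935 and 18562 CPM and 1885, 4151 and 15752 CPM, against 56077 and 58363 CPM in other spots. Lgals7, Lce3c, Rptn, Calm4, Mt4 and Aldh3a1, which are known from stratified epithelium or cornea, were among the 15 lowest genes, at 2.97- to 5.29-fold lower, and all 6 stood 8.23-fold or more below the other spots of their own section in both conditions. Chil4, a chitinase-like secreted protein, had the largest fold among the lower genes named by rule, with 59.1 CPM in day 4 muscle-rich spots and 631 CPM in unwounded ones (10.7-fold lower, 95% interval 8.03 to 14.5), and it was 8.76-fold lower in other spots too. Muc5b, a salivary mucin, had 253 CPM in day 4 muscle-rich spots and 12.3 CPM in unwounded ones (20.5-fold higher, 95% interval 12.4 to 36.6), beside 2748 and 10.6 CPM in other spots; the 10 salivary genes summed to 399 and 32.3 CPM in muscle-rich spots and 5147 and 34.6 CPM elsewhere. The part of transcripts spread from neighbouring tissue in these values was not tested.

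The TAM receptors Tyro3, Axl and Mertk and their ligands Gas6 and Pros1, which act in clearing dying cells and damping inflammation and which the series' title names in part, were sparse. Gas6 had 51 UMIs in day 4 muscle-rich spots and 50 in unwounded ones, or 60.3 and 38.5 CPM, and was 1.57-fold higher (95% interval 1.04 to 2.36). Its ratio ran from 0.932 to 1.79 over the alternatives. Axl had 42 and 68 UMIs, or 49.6 and 52.3 CPM, a ratio of 0.948 (95% interval 0.630 to 1.41). Neither passed the 2-fold limit. Pros1 had 15 and 9 UMIs, under the minimum for comparison. In the 2 alternatives that compared Pros1, its ratio was 2.56 (minimum of 20 UMIs) and 2.08 (the 5% limit). Tyro3 had 1 and 1 UMIs, and Mertk 0 in both sets, which allows up to 3.54 CPM at day 4 and 2.31 CPM unwounded. Against the other spots of their section, Axl stood at 0.590 of their level at day 4 and 0.623 in unwounded mucosa, and Gas6 at 0.737 and 0.397. Pros1 was lowest of the 3 TAM genes measured in that contrast at day 4 (log2 ratio -1.06), where 1 was called lower, beside 61.7% of all genes. In unwounded mucosa Tyro3 was lowest of 4 (-1.36), and 3 were called lower, beside 45.1%. In the other spots, day 4 over unwounded, Pros1 was highest of 4 (1.02), and 1 was called higher, beside 15%.

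Set against the other spots of the same section, muscle-rich spots differed because the rule chose them for muscle genes, so these contrasts are descriptions. At day 4, 534 of 7060 genes (7.56%) were higher and 4358 (61.7%) lower in muscle-rich spots. In unwounded mucosa 237 of 9214 (2.57%) were higher and 4152 (45.1%) lower. The genes that led both contrasts besides the 8 markers were Myh8, which was 11.9-fold higher than in other spots at day 4 and 17.3-fold higher in unwounded mucosa, and Mss51, a muscle mitochondrial protein, by 11.6-fold and 9.35-fold. Ddit4l, an inhibitor of mTOR signalling, was higher by 8.35-fold and 4.34-fold. Myoz1, a calcineurin-binding Z disc protein of fast fibres, was 9.82-fold higher at day 4 and 2.94-fold higher in unwounded mucosa, and Actn3 was 3.54-fold higher and 8.46-fold higher. The other spots behind these folds differed between the sections, with the median marker share of 0.388% at day 4 and 5.18% in unwounded mucosa given above, and the part of this gap in the folds was not tested. Against other spots with at least 5% of the markers alone, 40 of 2252 genes (1.78%) were higher and 386 (17.1%) lower at day 4, and 49 of 6244 (0.785%) were higher and 1308 (20.9%) lower in unwounded mucosa.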

How the data were processed

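The values are UMI counts per gene and spot, whole numbers deposited by the authors as sparse matrices with a spot position file for each section. Per the file headers they were made with Space Ranger 1.3.1, and per the submitters' processing notes mm10, Space Ranger and Seurat were used; no source used here gives the filters behind the deposited counts. Both oral mucosa sections of 4 were used, and the 2 facial skin sections were not used here. Of 33 gene lists with 417 genes, 414 were found. The muscle-rich spots and the lists were chosen with earlier results of these data known.

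From the counts, spots of a set were summed and scaled to CPM. Intervals are exact Poisson intervals, exact conditional intervals for ratios, and an approximate log-normal counting interval for ratios of ratios (Python 3.11.15, numpy 2.4.6, scipy 1.17.1, pandas 2.3.3). TMM factors came from edgeR 4.0.16 (R 4.3.3) as a scaling alternative, with no test. The calling step was tested on simulated data. UMIs do not count PCR copies, and doublets have no meaning for spots. Genes were named from a rule, and the text describes part of those it gave: the 8 markers, 5 TAM genes, up to 5 measured members of each list with the largest log2 ratio, the 15 genes highest and the 15 lowest at day 4 from 100 UMIs on (leaving out mitochondrial, globin, ribosomal, sex-linked and predicted genes) and the 10 highest over other spots per section; genes under 50 UMIs, the sex-linked genes, Gm8797 and Myh7 were added after their values were seen. Alternatives were the choice and number of spots, the largest patch, a minimum of 3000 UMIs per spot, the scaling, the minimum count, the fold, the pseudocount and thinning.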

Additional observations from a re-analysis of the deposited data

How the results depend on the processing

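No paired analysis was possible because each condition is 1 section and no result comes from a test. Numbers of genes higher and lower in day 4 muscle-rich spots were 108 and 82 of 3021 compared. The number compared also changed with the setting, so the counts are not on the same scale. They were 59 and 53 of 1682 in the 40 highest spots, and 203 and 511 of 7169 in all spots with at least 5% of the markers. With a minimum of 20 UMIs they were 258 and 193 of 5883, and with a minimum of 200 they were 29 and 18 of 844. With a 1.5-fold limit they were 352 and 242 of 3021. With totals that left out the markers and mitochondrial genes they were 58 and 167 of 3021. Lower genes numbered 189 of 3183 when spots were ranked by 8 other muscle genes and 48 of 2454 in the largest patch. Of 3021 genes, 135 were lower with TMM and 130 with totals without mitochondrial and erythrocyte genes, the last chosen after seeing the data. The ranking by other genes shared 74 of 80 day 4 spots and 46 of 80 unwounded spots with the rule.

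Against other spots at day 4, TMM gave 1285 genes higher and 2030 lower of 7060 compared. Totals without the markers and mitochondrial genes gave 879 higher of 7060. A minimum of 200 UMIs gave 281 and 1120 of 2002. Other spots with at least 5% of the markers (added after seeing the data) gave 40 and 386 of 2252. In unwounded mucosa, of 9214 genes compared, the 5% rule gave 890 higher, the other ranking 155 higher and the 1.5-fold limit 546 higher. Of the same 9214, TMM gave 1134 and 1975 and the reduced totals 826 and 2345. The minimum of 200 UMIs gave 140 and 1724 of 4072, and the added 5% other spots 49 and 1308 of 6244. Of 49 named genes past 2-fold, 2 changed sign in some alternative: Krt16 (-1.69 with the 5% rule, -1.01 with the other ranking) and Hba-a2 (-0.090 in spots with under 1% erythrocyte UMIs, added). Of these 49, 28 kept their call in every alternative that compared them. Of 107 measured named genes within 2-fold, 41 changed sign in some alternative. The cause of these shifts was not tested, and with 1 section per condition depth limits the counting error only.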
